A study of Mus musculus with 7 samples.

Results

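Integrins, laminins and the proteins that tie them into a basement membrane were followed in mouse embryonic stem cells (mESCs) and mouse embryonic fibroblasts (MEFs). The members were the genes of the count table whose symbols name an integrin alpha or beta chain or a laminin alpha, beta or gamma chain, together with Nid1, Nid2, Hspg2, Agrn and Dag1. This gave 37 genes of 55484 listed, namely 13 integrin alpha chains, 8 integrin beta chains, 11 laminin chains, 4 linker proteins and dystroglycan. Alpha chains whose symbol ends in a letter alone, other than Itgav, do not match this naming and are given with the related genes.

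The study compared sequencing platforms for chromatin accessibility in these cells and used RNA-seq of both cell types to read out transcription factor levels. Gene counts of 4 MEF and 3 mESC libraries were analysed, with no treatment named in the labels. The study's methods give cultured MEFs and mESCs, all on a C57/Bl6 background, in the part on the accessibility libraries. The RNA data are described as a set that the laboratory already held. The sources describe a sort of Thy1+ MEFs and of Thy1-/Ssea1+/Epcam+ mESCs for the accessibility libraries and do not say whether the RNA came from sorted cells. The study calls its RNA samples biological replicates, gives fewer of them for MEFs than the table holds, and does not say whether they were separate cultures or embryos. In the names of the count columns, the number right after the cell type is the same throughout. Whether it marks a line or culture shared by the libraries of a cell type is not stated. The p-values measure the spread between these libraries, part of which may be technical. They may not cover the spread between separate cultures or embryos. The labels' extraction text names blood stem cells of young and aged mice and not the cells of these samples. The count columns carry the letter O in all MEF names and Y in all mESC names, which is not explained, so whatever the letters mark cannot be told apart from cell type. Library totals ran from 6528643 to 11441278 counts, and a library is named below by its total. Wherever values of a gene are listed, the MEF libraries come first (11441278, 9176467, 7312679 and 6528643 counts), then the mESC libraries (8193825, 8057985 and 7462710 counts).

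Integrins are receptors made of 1 alpha and 1 beta chain that hold cells to the matrix outside them, and the pair decides what is bound: laminin, collagen, fibronectin and other ligands with the RGD motif, or a receptor on another cell. Laminins are trimers of an alpha, a beta and a gamma chain that assemble into the sheet of a basement membrane, where nidogens, perlecan and agrin join the laminin sheet to collagen IV and to the cell surface. The alpha chain carries the sites that integrins and dystroglycan bind. Embryonic stem cells resemble the early epiblast, which later becomes an epithelium resting on a laminin-rich membrane. Fibroblasts live inside a matrix of fibrillar collagens and fibronectin.

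The cell type labels were checked against marker genes, on CPM (counts scaled to 1 common library size after TMM). The summed level of 9 pluripotency markers was 26.5 to 29.8 CPM in MEF libraries and 2405.1 to 2653.4 CPM in mESC libraries, and that of 9 fibroblast markers was 23086.9 to 39790.9 CPM and 155.5 to 178.4 CPM. Of the pluripotency markers, Fut4 did not separate the cell types, at 0.360 to 1.98 CPM in MEFs and 0.759 to 1.02 CPM in mESCs. Blood markers summed to 46.3 to 85.7 CPM in MEFs and 37.4 to 42.0 CPM in mESCs, with the pan-leukocyte gene Ptprc at no more than 2.04 CPM in any library. Among MEFs, 2 libraries stood apart, those with totals of 9176467 and 6528643. The fibroblast gene Dcn reached 467 and 522 CPM there, against 121 and 149 CPM in the other two, and the myeloid gene Lyz2 reached 32.7 and 35.8 CPM, against 6.62 and 8.69 CPM. Dcn, Lyz2 and Fut4 were named after their values were seen. Members whose call changed without both of these libraries are given with that value.

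Of the 37 genes, 34 passed the filter on low counts, and 20 of these differed between the cell types at an adjusted p under 0.05 (edgeR quasi-likelihood test, Benjamini-Hochberg adjustment over 16580 genes). The 3 that were not tested were Itga2, Itgb2 and Lamc3. Of the 20, 6 were higher and 14 lower in mESCs. Over all genes tested, 47.9% were called, 22.8% higher and 25.0% lower. Among the 34 tested, the 20 called genes were also the 20 whose mESC and MEF libraries did not overlap, which held for 52.1% of all genes tested. The median log2 fold change of the 34 was -0.51, beside 0.04 over all genes tested. In these bulk libraries, fewer cells of a type and less RNA per cell cannot be told apart. With no scaling beyond library totals, 8 of the members were higher and 14 lower, the median over all genes shifted to 0.32, and 60.8% of all calls were higher in mESCs, against 47.7% with TMM.

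**Figure D1:**
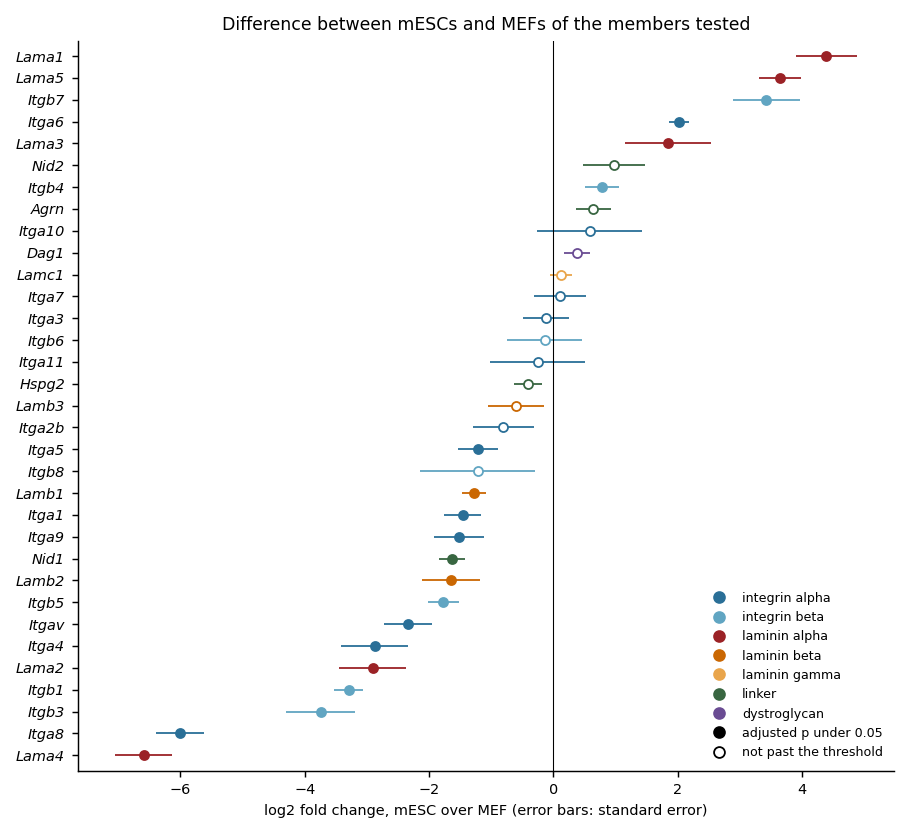
Log2 fold change, mESC over MEF, of 33 of the 34 genes tested, sorted by size, with standard errors as bars and colours for the chain class. Filled points passed an adjusted p of 0.05: the 5 laminin alpha chains lie at both ends, from Lama4 at -6.59 to Lama1 at 4.39.

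Among the alpha chains that pair into laminin receptors, Itga6 alone rose in mESCs. Itga6 (chr2:71745616-71858416, GRCm38, plus strand) encodes the alpha chain that joins Itgb1 or Itgb4 to bind laminin. It stood at 28.5, 28.5, 23.2 and 26.1 CPM in MEFs and at 114, 98.2 and 112 CPM in mESCs. All mESC libraries were above all MEF libraries, with small spread inside each cell type (log2 fold change 2.02, SE 0.15, adjusted p = 2.31e-06, edgeR). Itga3, the other laminin-binding chain of epithelia, had 5.18, 4.07, 6.86 and 5.72 CPM in MEFs and 6.18, 5.57 and 3.30 CPM in mESCs. Its difference of -0.12 (SE 0.37) did not pass the test, and it turned positive (0.16) without TMM scaling. Itga7, known from muscle, lay between 2.04 and 2.82 CPM in all libraries and was not called (0.11, SE 0.42).

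The collagen-binding alpha chains gave 1 call in 3 tests. Itga1, which binds collagen IV and laminin, had 35.7, 45.5, 32.9 and 56.0 CPM in MEFs against 21.7, 9.77 and 14.9 CPM in mESCs and was lower (-1.46, SE 0.30, adjusted p = 0.00211, edgeR). Itga11, a receptor for fibrillar collagen typical of mesenchyme, stood at 30.0, 51.0, 22.9 and 46.0 CPM in MEFs and at 7.15, 5.34 and 81.9 CPM in mESCs. The mESC library of 7462710 counts was thus above every MEF library and the other two mESC libraries were below every one. Its log2 fold change of -0.25 (SE 0.77) was not called and changed sign without scaling (0.04). Without that library it was -2.59 and was called (adjusted p = 0.000535, edgeR). The same library had the highest mESC values of Itgb2, Itgb8 and Lyz2, the last at 7.08 CPM against 0.975 and 1.25 CPM, and the part of any of this in the Itga11 value was not tested. Itga10 lay between 0.240 and 1.83 CPM and was not called, and 30.6% of its 50-base words also occur in the overlapping gene Gm42957, so its reads may be shared. Itga2, the collagen receptor of platelets and epithelia, had 0 to 3.71 CPM and was not tested.

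The RGD-binding alpha chains were lower in mESCs for 3 of 4. Itga8 (chr2:12106632-12301922, minus strand), the receptor chain for nephronectin, showed the widest gap of all integrin chains: 79.2, 126, 126 and 111 CPM in MEFs against 0.650, 2.04 and 2.48 CPM in mESCs. This was a 64.1-fold lower level (log2 fold change -6.00, SE 0.39, adjusted p = 6.67e-07, edgeR). Itgav (chr2:83724397-83806916, plus strand), the vitronectin receptor chain that joins several beta chains, had 170, 97.4, 127 and 85.2 CPM in MEFs and 17.8, 40.3 and 13.0 CPM in mESCs. It was 5.07-fold lower, while its mESC libraries spread 3.11-fold, with the highest value in that of 8057985 counts (-2.34, SE 0.39, adjusted p = 0.000603, edgeR). Itga5, the classical fibronectin receptor chain, had 17.8, 10.7, 27.6 and 18.4 CPM against 7.80, 8.18 and 8.14 CPM, and was lower by less (-1.21, SE 0.32, adjusted p = 0.00981, edgeR). Itga2b, the fibrinogen receptor chain of platelets, was at 1.14 to 5.41 CPM over all libraries and was not called (-0.80, SE 0.49). Exons of Itga8 and Itgav overlap those of an antisense gene, and the strand setting of the counting is not stated.

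Both alpha chains known for leukocyte adhesion and for tenascin or VCAM1 were lower in mESCs. Itga4 had 18.3, 6.59, 15.8 and 8.59 CPM in MEFs and 0.650, 2.5 and 1.89 CPM in mESCs (-2.87, SE 0.54, adjusted p = 0.00126, edgeR). Its values were lower in the MEF libraries of 9176467 and 6528643 counts than in the other two. Itga9 went the other way among MEFs, with 8.73, 15.8, 7.47 and 20.4 CPM, against 5.20, 3.75 and 4.72 CPM in mESCs (-1.52, SE 0.40, adjusted p = 0.00959, edgeR). Without both of those MEF libraries, Itga9 was no longer called (-0.86, adjusted p = 0.10).

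Of the 7 beta chains tested, Itgb1, Itgb3 and Itgb5 fell and Itgb7 and Itgb4 rose. Itgb1 (chr8:128685654-128733200, plus strand) is the common partner of most alpha chains above. Its levels were 907, 1002, 867 and 598 CPM in MEFs and 80.5, 110 and 68.2 CPM in mESCs, 9.80-fold lower (-3.29, SE 0.23, adjusted p = 1.23e-06, edgeR). The groups lay far apart although Itga6, one of its partners, was higher in the same mESC libraries. Itgb3, which joins Itgav or Itga2b, had 15.1, 14.7, 8.84 and 12.9 CPM in MEFs and 0.217, 1.82 and 0.826 CPM in mESCs (-3.74, SE 0.56, adjusted p = 0.000267, edgeR). Itgb5, another partner of Itgav, was at 32.2 to 46.4 CPM in MEFs and 8.18 to 14.5 CPM in mESCs (-1.77, SE 0.25, adjusted p = 0.000175, edgeR).

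Itgb7 (chr15:102215995-102231944, minus strand) encodes the beta chain that lymphocytes pair with Itga4 or Itgae. It was at 1.34, 0.719, 0.610 and 0.318 CPM in MEFs and at 4.44, 9.88 and 11.3 CPM in mESCs, 10.8-fold higher (3.43, SE 0.53, adjusted p = 0.000367, edgeR). Its partner Itga4 was lower in the same comparison. Its other partner Itgae had 1, 1, 0 and 1 counts in MEFs and 27, 57 and 30 counts in mESCs. Pooled over libraries the ratio was 45.3 (exact 95% interval 15.1 to 223.1, for counting error only), and the gene was called (adjusted p = 0.000127, edgeR). Of 9 blood markers, 6 were over 3 counts in some mESC library. Ptprc had 0, 1 and 0 counts there, Hbb-bt was at 0, Spi1 had 9, 4 and 14 counts, and Lyz2 had 9, 11 and 60 counts, the last in the library where Itgb7 was highest. Kit, which other cell types also use, was higher in every mESC library (29.5 to 33.9 CPM against 3.71 to 6.91 CPM in MEFs). These markers were named after their values were seen, and the part of blood cells in the Itgb7 and Itgae levels was not tested.

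Itgb4, the partner of Itga6 in the hemidesmosomes of epithelia, had 7.67, 5.99, 8.23 and 6.52 CPM in MEFs and 14.6, 10.2 and 11.8 CPM in mESCs. The groups did not overlap and the call was narrow (0.78, SE 0.27, adjusted p = 0.0368, edgeR). It was lost when any 1 library other than MEF 7312679 or mESC 8057985 was left out, with an adjusted p of up to 0.147, and without both MEF libraries of 9176467 and 6528643 counts (0.59, adjusted p = 0.18). The 6 surface epithelium markers summed to 249 to 395 CPM in MEFs and 139 to 173 CPM in mESCs, and their part in the Itgb4 value was not tested. Cdh3 (108 to 257 CPM in MEFs, 16.6 to 25.4 CPM in mESCs) and Trp63 were lower in every mESC library, Esrp1 was higher in every one (7.08 to 11.1 CPM against 0.636 to 5.49 CPM in MEFs), and the values of Krt5, Krt14 and Krt15 overlapped. These markers were named after their values were seen. Itgb6 and Itgb8, which activate TGF-beta together with Itgav, were not called. Itgb6 ran from 0.826 to 2.78 CPM (-0.14, SE 0.60, positive at 0.14 without scaling). Itgb8 had 1.73, 0.359, 2.74 and 2.86 CPM in MEFs and 0.325, 0.114 and 2.01 CPM in mESCs, and was called only without the mESC library of 7462710 counts (-3.03, adjusted p = 0.0481, edgeR). Itgb2, the leukocyte beta chain, was not tested and had 0, 8, 3 and 1 counts in MEFs and 0, 1 and 24 counts in mESCs.

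**Figure D2:**
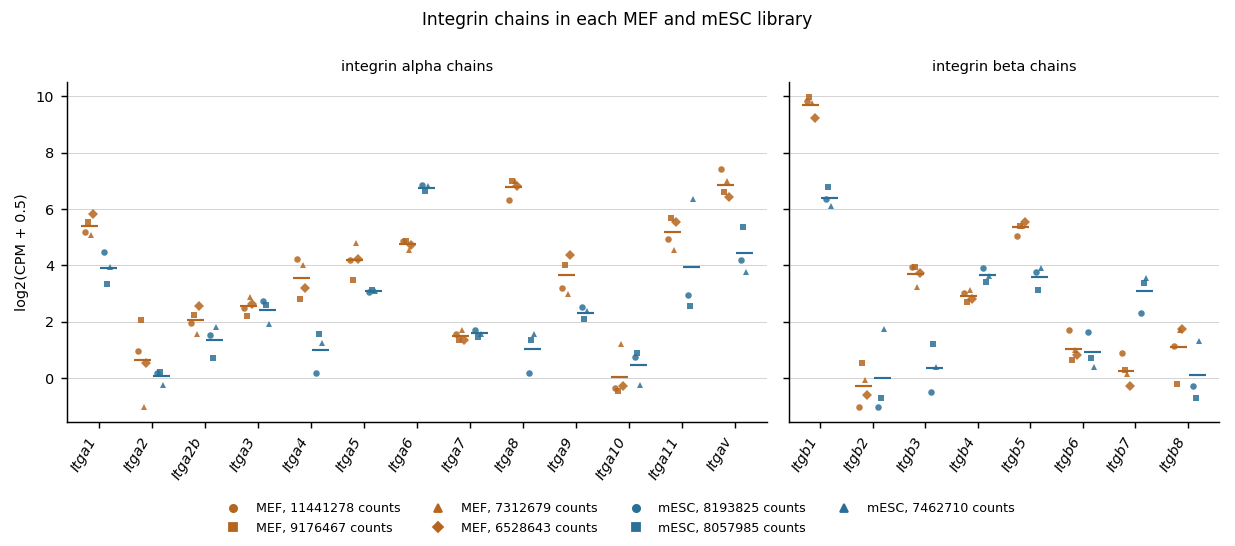
Level of each of the 21 integrin chains, as log2(CPM + 0.5), in the 4 MEF (brown) and 3 mESC (blue) libraries, with the mean as a bar and a marker shape for each library. Itga6 and Itgb7 are higher in every mESC library, Itga8 and Itgb1 are lower in every one, and the 3 mESC points of Itga11 are split.

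Set against its own class, each chain's share of the counts was read in every library. Such a share compares libraries and not chains, because libraries primed at the 3′ end count transcripts of different chains unequally. A share can also rise because another chain of the class falls. That of Itgb5 was 3.33 to 6.95% in MEFs and 5.80 to 12.9% in mESCs, though its level was lower in mESCs. Itga6 made up 5.84 to 7.20% of the alpha chain counts in MEFs and 45.0 to 60.6% in mESCs. Itga8 and Itgav together went the other way, at 50.8 to 63.8% in MEFs and 6.23 to 23.4% in mESCs. Itgb1 held 89.5 to 93.9% of the beta chain counts in MEFs and 60.7 to 77.7% in mESCs. In the mESC libraries most of the remainder was Itgb5 (11.2, 5.80 and 12.9%), Itgb4 (12.6, 7.25 and 10.5%) and Itgb7 (3.84, 7.01 and 10.1%). Summed over the class, alpha chains had 395 CPM ± 6.44 (SD, n = 4) in MEFs and 206 ± 36.7 (SD, n = 3) in mESCs, and beta chains 909 ± 170 against 123 ± 15.7.

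**Figure D3:**
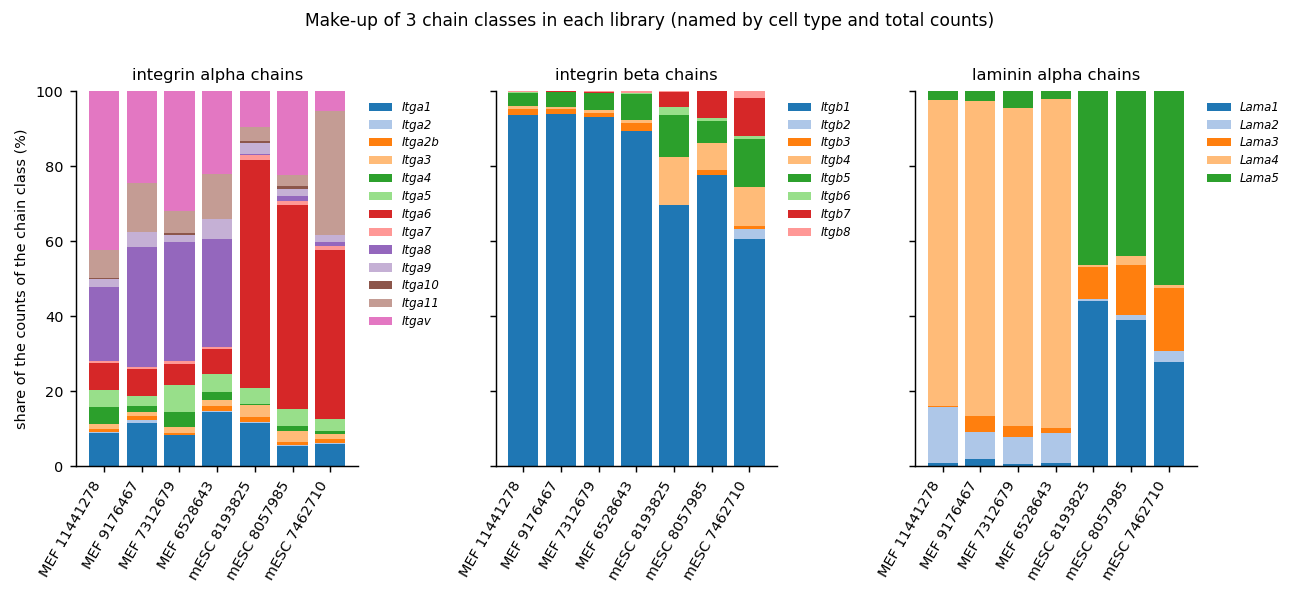
Share of the counts of a chain class (%) taken by each chain, in each of the 7 libraries, for integrin alpha, integrin beta and laminin alpha chains. Itga6 fills 45.0 to 60.6% of the alpha bars in mESCs, and the laminin alpha bars change from mostly Lama4 in MEFs to mostly Lama1 and Lama5 in mESCs.

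All 5 laminin alpha chains passed the test, 3 of them higher and 2 lower in mESCs. Lama1 (chr17:67697259-67822647, plus strand) is the alpha chain of the first laminin of the embryo. It was at 0.480, 2.04, 0.457 and 0.795 CPM in MEFs and at 27.5, 18.2 and 15.0 CPM in mESCs, 21.0-fold higher (4.39, SE 0.50, adjusted p = 3.9e-05, edgeR). Lama5 (chr2:180176373-180225859, minus strand), the alpha chain of most epithelial membranes and of the laminin used as a coating for pluripotent cells, was at 1.15, 2.52, 2.90 and 1.75 CPM in MEFs and at 29.1, 20.4 and 27.7 CPM in mESCs. This was 12.5-fold higher (3.64, SE 0.34, adjusted p = 1.01e-05, edgeR). Neither gene overlapped between the cell types.

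Lama4 (chr10:38965515-39110188, plus strand), a chain of vessels and mesenchyme, showed the largest difference of the 34 genes tested. It had 38.0, 84.7, 53.8 and 77.5 CPM in MEFs and 0.325, 1.14 and 0.472 CPM in mESCs, which rest on 3, 10 and 4 counts. The level was 96.5-fold lower (-6.59, SE 0.46, adjusted p = 1.27e-06, edgeR). Lama2, the chain of muscle and nerve membranes, was at 6.91, 7.07, 4.57 and 7.0 CPM in MEFs and 0.325, 0.682 and 1.53 CPM in mESCs (-2.91, SE 0.54, adjusted p = 0.0012, edgeR).

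Lama3, which anchors epithelia through a trimer that holds Lamb3, was at 0.192, 4.31, 1.83 and 1.27 CPM in MEFs and at 5.31, 6.25 and 8.97 CPM in mESCs. Its call was at the threshold (1.85, SE 0.69, adjusted p = 0.0484, edgeR), and the MEF values spread 22.5-fold. The call was lost without MEF 7312679, MEF 6528643 or any 1 mESC library, with an adjusted p of up to 0.145. Lamb3, at 1.42 to 3.84 CPM in all libraries, was not called (-0.60, SE 0.45).

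As shares of the laminin alpha counts, Lama4 held 81.3 to 87.8% in MEFs and 0.520 to 2.43% in mESCs, and Lama1 and Lama5 together 2.88 to 5.28% and 79.6 to 90.5%. The class sum was 74.8 CPM ± 24.3 (SD, n = 4) in MEFs and 54.3 ± 7.94 (SD, n = 3) in mESCs. Its libraries overlapped, at 46.7 to 100.7 CPM and 46.7 to 62.5 CPM. Because chains are counted unequally, sums made of different chains are not on 1 scale. Among mESC libraries, Lama1 had the largest share (44.0%) in the library of 8193825 counts and the smallest (27.9%) in that of 7462710 counts.

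**Figure D4:**
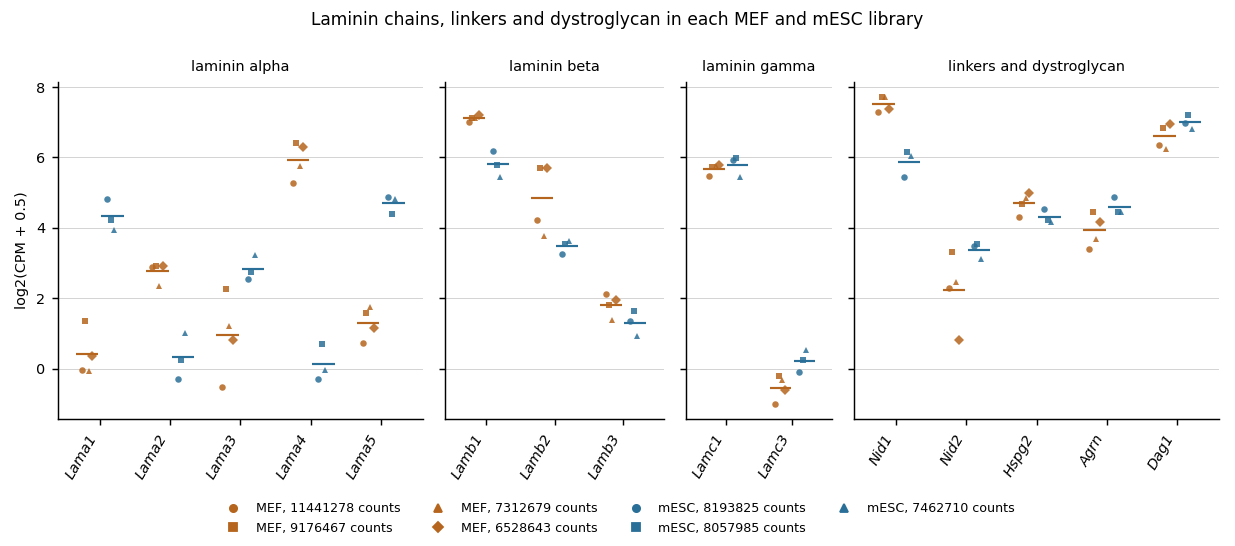
Level of 10 laminin chains, the 4 linkers and Dag1, as log2(CPM + 0.5), in the 4 MEF (brown) and 3 mESC (blue) libraries, with means as bars. Lama1 and Lama5 lie above and Lama4 and Lama2 below the MEF points in all mESC libraries, while the points of Lamc1 overlap.

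The beta and gamma chains shared by many trimers changed less. Lamb1 (chr12:31265234-31329644, plus strand) was at 128, 138, 138 and 148 CPM in MEFs and at 72.7, 54.6 and 42.8 CPM in mESCs (-1.28, SE 0.19, adjusted p = 0.000279, edgeR). Its share of the laminin beta counts overlapped between the cell types, 71.7 to 89.9% in MEFs and 76.4 to 86.7% in mESCs. Lamb2, the beta chain of synapses, kidney and vessels, had 18.0, 51.4, 13.3 and 51.7 CPM in MEFs and 9.10, 11.1 and 11.8 CPM in mESCs (-1.65, SE 0.47, adjusted p = 0.0137, edgeR). The high MEF values were those of the libraries with totals of 9176467 and 6528643. It was not called without both of those MEF libraries (-0.59, adjusted p = 0.154), or without mESC 8193825 (adjusted p = 0.0537). Lamc1 (chr1:153218922-153332786, minus strand), the gamma chain of nearly all embryonic laminins, was at 44.0, 52.1, 53.5 and 55.2 CPM in MEFs and at 60.7, 63.3 and 43.3 CPM in mESCs. Its log2 fold change was 0.12 with an SE of 0.18, and it made up 92.9 to 97.3% of the gamma chain counts in every library. Lamc3 was not tested: it had 0, 3, 2 and 1 counts in MEFs and 4, 6 and 8 in mESCs, a pooled ratio of 3.58 (exact 95% interval 1.36 to 11.0, counting error only).

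Of the 4 linkers, Nid1 was the 1 that passed. Nid1, the nidogen that bridges laminin and collagen IV, had 155, 209, 210 and 166 CPM in MEFs and 43.4, 70.3 and 65.7 CPM in mESCs (-1.63, SE 0.21, adjusted p = 9.2e-05, edgeR). Its paralogue Nid2 stood at 4.41, 9.47, 5.03 and 1.27 CPM against 10.6, 11.1 and 8.26 CPM (0.97, SE 0.50, adjusted p = 0.138), and it was called without the MEF library of 9176467 counts (1.46, adjusted p = 0.0331, edgeR) and without both that library and the one of 6528643 counts (1.06, adjusted p = 0.045). Agrn, the proteoglycan that binds dystroglycan, had 9.98, 21.6, 12.3 and 17.6 CPM in MEFs and 29.1, 21.5 and 21.5 CPM in mESCs (0.64, SE 0.29, adjusted p = 0.0895), and was likewise called without that library (0.85, adjusted p = 0.036, edgeR) and without both (1.08, adjusted p = 0.0148). It was also called with no scaling (0.92, adjusted p = 0.0216). Hspg2, which encodes perlecan, was at 17.6 to 31.2 CPM in all libraries (-0.41, SE 0.23). As shares of the linker counts, Nid1 was at 76.8 to 82.1% in MEFs and 41.0 to 58.1% in mESCs, and Agrn at 4.82 to 8.17% and 17.7 to 27.5%. The share of Agrn also rises when Nid1 falls, and the CPM of Agrn overlapped between the cell types.

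Dag1 (chr9:108204634-108263958, minus strand) encodes dystroglycan, the laminin receptor that is no integrin. It was at 81.3, 114, 75.0 and 124 CPM in MEFs and at 127, 147 and 111 CPM in mESCs, so that the cell types overlapped (0.38, SE 0.20, adjusted p = 0.154, edgeR). Without scaling it was called higher (0.65, adjusted p = 0.024), and without the MEF libraries of 9176467 and 6528643 counts as well (0.68, adjusted p = 0.0171).

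Lama1 and Lamb1 varied among the mESC libraries in the same order as 7 of 10 marker genes of the extraembryonic endoderm. This covers the primitive, parietal and visceral endoderm, the lineages beside the epiblast that lay down the first laminin and collagen IV of the embryo. In the libraries of 8193825, 8057985 and 7462710 counts, Sox17 was at 5.53, 4.66 and 1.06 CPM and Foxa2 at 2.28, 2.04 and 0.472 CPM, and both were at 0 counts in all MEF libraries. Dab2 was at 45.7, 18.4 and 10.0 CPM and Gata6 at 26.0, 15.5 and 8.85 CPM. Neither was low in MEFs, with Dab2 at 56.9 to 107.7 CPM and Gata6 at 25.8 to 34.9 CPM there. In the mESC libraries, Lama1 was at 27.5, 18.2 and 15.0 CPM and Lamb1 at 72.7, 54.6 and 42.8 CPM. These genes were named after their values were seen, from a marker list in which Gata4 (1.95, 0.795 and 2.24 CPM), Amn (9.65, 3.75 and 3.77 CPM) and Afp (1, 0 and 1 counts) did not follow that order. An order over 3 libraries is easily shared by chance, and this one is also the order of falling library total. Genes of a lineage can vary together, so the 7 need not be separate agreements. From other lists, Pou5f1 and Esrrb (2 of 9 pluripotency markers) and Thy1 and Col1a2 (2 of 9 fibroblast markers) also followed it. The remaining lists had 0 to 1 such genes. The members Lamc1 (60.7, 63.3 and 43.3 CPM) and Nid1 (43.4, 70.3 and 65.7 CPM) did not follow it. Of the endoderm list, 9 of 10 genes were over 3 counts in some mESC library and 7 in some MEF library. The list summed to 29.3 to 102.2 CPM in mESCs and 86.7 to 143.6 CPM in MEFs, where Dab2 made up most of it. Without the mESC library of 8193825 counts, the log2 fold change was 4.10 for Lama1 (adjusted p = 0.000336, edgeR) and -1.50 for Lamb1 (adjusted p = 0.000224, edgeR). That library had the highest Lamb1 of the mESC libraries. Those left in also held Sox17 (41 and 9 counts) and Gata6 (136 and 75 counts), so this fit is not one without such markers. The part of such cells in these levels was not tested.

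Promoter windows are shown for the 2 highest and the 2 lowest called genes that had 1 window each in the RefSeq promoter table (GRCm38.p6). Lama5 and Itgb7 were the only genes called higher that had a window. The called genes Lama1, Lama3, Itga6 and Itgb4 (higher) and Lama4 and Itgb3 (lower) had no entry. Each window shown is the 250 bases before the transcription start, 5′ to 3′ on the gene's strand. Lama5 is chr2:180225860-180226109 (minus), Itgb7 chr15:102231936-102232185 (minus), Itga8 chr2:12301945-12302194 (minus) and Itgb1 chr8:128685404-128685653 (plus). Capitals mark matches, on either strand, to the GC box GGGCGG, the SNAI E-box CAGGTG, the TEAD motif GGAATG and the SOX motif AACAAT.
Lama5: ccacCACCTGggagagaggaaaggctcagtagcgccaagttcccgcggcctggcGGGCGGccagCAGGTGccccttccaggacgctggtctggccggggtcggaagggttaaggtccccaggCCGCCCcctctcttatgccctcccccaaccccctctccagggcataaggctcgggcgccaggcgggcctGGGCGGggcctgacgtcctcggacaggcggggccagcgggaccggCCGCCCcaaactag
Itgb7: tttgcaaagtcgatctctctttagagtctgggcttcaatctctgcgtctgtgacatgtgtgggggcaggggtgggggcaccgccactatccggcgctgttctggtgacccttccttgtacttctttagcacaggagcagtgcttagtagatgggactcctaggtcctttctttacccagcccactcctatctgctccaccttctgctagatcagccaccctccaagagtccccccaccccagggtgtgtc
Itga8: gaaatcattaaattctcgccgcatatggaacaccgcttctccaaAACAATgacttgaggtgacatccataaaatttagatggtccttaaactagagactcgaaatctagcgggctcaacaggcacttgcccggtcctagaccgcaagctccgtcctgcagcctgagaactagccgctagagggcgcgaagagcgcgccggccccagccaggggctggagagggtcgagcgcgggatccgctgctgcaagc
Itgb1: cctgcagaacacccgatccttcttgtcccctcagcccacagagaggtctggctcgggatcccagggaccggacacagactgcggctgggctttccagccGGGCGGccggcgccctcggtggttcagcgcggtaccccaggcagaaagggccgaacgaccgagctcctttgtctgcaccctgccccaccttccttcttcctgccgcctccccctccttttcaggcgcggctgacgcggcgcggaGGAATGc

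The Lama5 window held 4 GC boxes, 2 E-boxes and 19 CG dinucleotides, and the Itgb7 window none of these motifs and 5 CG dinucleotides. The Itga8 window held 1 SOX match and 18 CG dinucleotides, and that of Itgb1 1 GC box, 1 TEAD match and 21 CG dinucleotides. Entries were found for 25 of the 37 genes, in 30 windows. A GC box was in 14 of them (46.7%, against 32.7% of all 32851 windows), the E-box in 8 (26.7% against 17.2%), the TEAD motif in 4 (13.3% against 12.6%) and the SOX motif in 2 (6.67% against 9.42%). Neither the AP-1 motif TGANTCA, in 6.75% of all windows, nor TATAAA, in 12.4%, was found in the 30. The median number of CG dinucleotides was 11.5 in these windows and 6 in all.

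Other genes of the same biology were read from 6 lists, by the same fit. Over all genes tested, 47.9% were called, 22.8% higher and 25.0% lower in mESCs. The share called was 88.2% of the basement membrane list, 82.4% of the ligands and 76.5% of the activators and adaptors. Collagen IV and further basement membrane components had 17 of 20 genes tested, of which 3 rose and 12 fell in mESCs. Smoc2, Fras1 and Col4a5 fell the most. Smoc2 was at 40.3 to 69.0 CPM in MEFs and 1.30 to 1.84 CPM in mESCs (-4.98, SE 0.31), Fras1 at 5.72 to 16.4 and 0.118 to 0.650 CPM (-4.51, SE 0.65), and Col4a5 at 11.7 to 18.3 and 0.118 to 1.30 CPM (-4.15, SE 0.54). Those that rose were Col18a1, Smoc1 and Col4a3. The call of Col4a3 was narrow (0.52, SE 0.19, adjusted p = 0.0407, edgeR). Smoc1 rested on 0, 4, 6 and 6 counts in MEFs and 41, 17 and 77 counts in mESCs. Col18a1, the collagen of which endostatin is a fragment, was at 3.55, 5.87, 4.73 and 7.79 CPM in MEFs and 75.9, 61.5 and 63.4 CPM in mESCs (3.62, SE 0.26, adjusted p = 1.54e-06, edgeR). Col4a1, the main collagen IV chain beside Col4a2, fell from 195 to 253 CPM to 16.5 to 42.0 CPM (-2.95, SE 0.29).

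The 18 other integrin ligands had 17 tested, with 13 lower and 1 higher. Col1a1, Col1a2 and Col3a1, the fibrillar collagens bound by Itga1 and Itga11, fell by 7.72, 7.79 and 7.73 on the log2 scale, each with no overlap. Spp1, which encodes osteopontin, a ligand of Itgav, rose from 61.1 to 72.6 CPM in MEFs to 711 to 835 CPM in mESCs (3.54, SE 0.13, adjusted p = 2.15e-08, edgeR). The gene of the Itga8 ligand nephronectin, Npnt, was at 7.47 to 12.5 CPM in MEFs and 3.36 to 5.90 CPM in mESCs (-1.21, SE 0.36, adjusted p = 0.0173, edgeR). Fn1, which encodes fibronectin, fell less than the collagens, from 391 to 525 CPM to 176 to 234 CPM (-1.29, SE 0.16), and Vtn, the gene of vitronectin, had at most 2 counts in any library. Col4a1, Npnt, Fn1 and Vtn were named after their values were seen.

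Inside the cell, 17 of 18 integrin activators and adaptors were tested, with 11 lower and 2 higher. The parvins, which join integrin-linked kinase to actin, moved in opposite directions. Parva was at 154, 172, 190 and 193 CPM in MEFs and 10.2, 1.36 and 3.30 CPM in mESCs (-5.15, SE 0.53, adjusted p = 2.06e-05, edgeR), and Parvb at 7.39, 5.39, 8.84 and 5.09 CPM against 31.5, 28.1 and 25.0 CPM (2.08, SE 0.26, adjusted p = 7.81e-05, edgeR). Fermt3, the kindlin of blood cells, also rose (1.34, SE 0.40, adjusted p = 0.018), and was not called without mESC 8193825 (adjusted p = 0.0641) or mESC 7462710 (adjusted p = 0.0653). Lims2 (-3.38, SE 0.59) and Rsu1 (-2.67, SE 0.18), partners in the same complex, fell with Parva. Ilk itself had at most 1 count in any library, and its exons overlap those of Taf10 and Rrp8 on the other strand, and it was not tested.

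The glycosylation enzymes that give dystroglycan its laminin-binding sugar had 11 of 12 tested, with 4 lower and 0 higher. The share called, 36.4%, was under the 47.9% of all genes tested. Pomt2 (-1.76, SE 0.38) fell without overlap, as did Rxylt1 (-1.38, SE 0.16), which was named after its values were seen. Dag1, their substrate, was not called. Of the dystrophin complex, which holds dystroglycan to the cytoskeleton, 11 of 13 were tested, with 4 lower and 1 higher. This was 45.5% called, near the share of all genes. Sspn fell from 21.1 to 47.2 CPM to 0.236 to 1.25 CPM (-5.54, SE 0.50), and Sgce by 2.77 on the log2 scale (SE 0.37). Sgcd had 125 counts over the MEF libraries and 5 over the mESC libraries, a pooled ratio of 0.0477 (exact 95% interval 0.0152 to 0.114). The gene called higher, Dtnb, had overlapping libraries (1.49, SE 0.47, adjusted p = 0.0232). Of 5 leukocyte integrin chains, only Itgae and Itgal were tested, and Itgae was the 1 called. Itgal, the alpha chain that leukocytes pair with Itgb2, was at 0.384, 3.71, 0.152 and 5.41 CPM in MEFs and 1.73, 3.18 and 1.18 CPM in mESCs. It was called higher without the MEF libraries of 9176467 and 6528643 counts (2.75, adjusted p = 0.0406, edgeR), which were also the MEF libraries high in Lyz2.

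**Figure D5:**
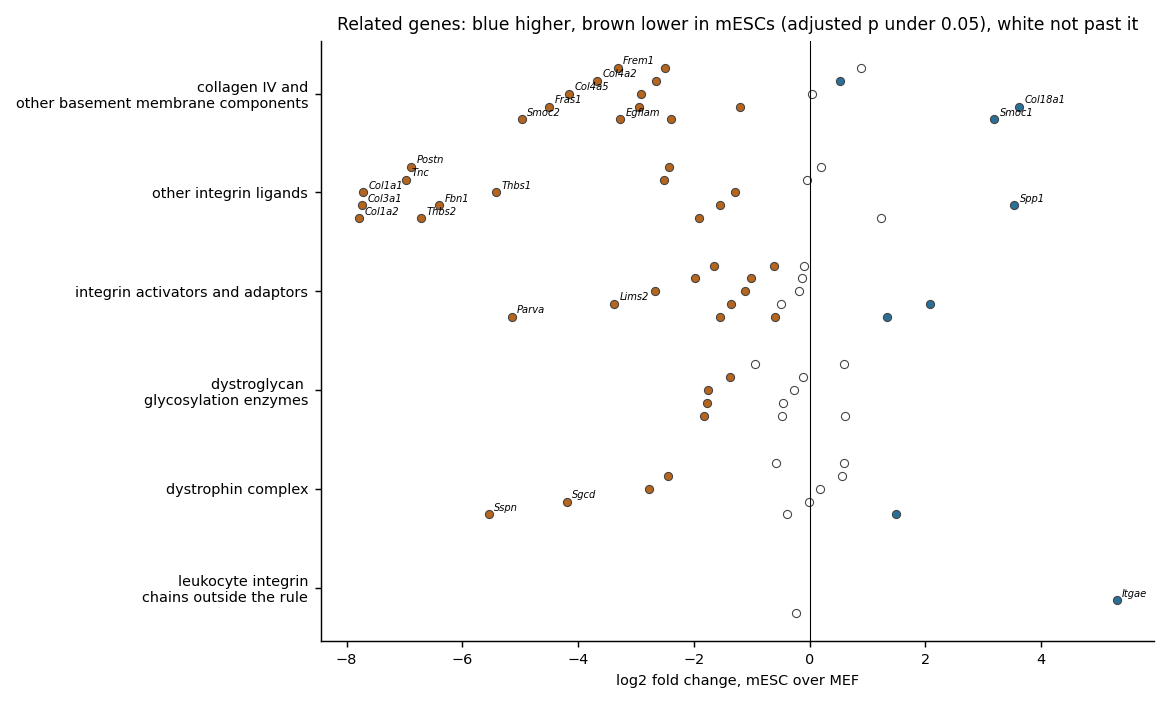
Log2 fold change, mESC over MEF, of the tested genes in each of the 6 related lists; blue points were called higher in mESCs, brown points lower, and white points were not called. Called genes beyond 3 in either direction carry their symbol. The ligand and basement membrane lists lie mostly on the left, with Spp1 and Col18a1 on the right.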

How the data were processed

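RNA was measured in 4 MEF and 3 mESC libraries by poly(A)-primed, 3′-biased RNA-seq with molecular identifiers. Per the methods, the authors split the reads by sample, trimmed them, mapped them with STAR (mm10), removed copies of 1 molecule with Je and ran featureCounts over exons, keeping reads with a unique position. The deposited counts are whole numbers and not normalized. The annotation release and strand setting are not given in the sources used here.

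Counts were tested with edgeR 4.0.16 (R 4.3.3, limma 3.58.1): quasi-likelihood test after TMM and filterByExpr, with the 7 libraries and no covariates, Benjamini-Hochberg adjusted p of 0.05 over 16580 genes. SE is the log2 fold change over the root of its F. CPM are over TMM-scaled totals, and the floor was set at 3 counts per library. Counting intervals are exact 95% binomial intervals.

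The members and lists were chosen with earlier results of these data known. Members are named, and from each related list up to 3 genes per direction by size among those called without overlap. A few of these genes are not reported here, though they stay in the counts of each group. Gene positions are those of GENCODE for GRCm38, matched by symbol, and promoters those of RefSeq. Date-like symbols (26, 0.249% of counts) stayed in the totals. No per-sample column was left out (0). The number right after the cell type is the same in all column names and is not explained. The names also hold unexplained letters (O, Y) and end in a number that no source ties to a sample. Libraries are therefore named by total.

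In simulated data for this comparison (16580 genes, 200 changed), edgeR recovered 160 genes at a log2 change of 2 (9 false calls) and 52 at 1 (1 false). It made 0 calls when none was changed. The simulated spread followed the trend with expression level and had no part of its own for each gene, and the changes were balanced in direction. The simulation therefore does not cover genes of unusually wide spread, or scaling when a large part of all genes differs. Alternatives were DESeq2 1.42.0, no scaling, DESeq2's size factors in edgeR, no filter beyond 1 count, a minimum of 10 counts throughout 1 cell type, a test against a fold change of 2, a prior count of 0.5 in place of 2 for log2CPM, pooled shares and leaving out each library. Leaving out both MEF libraries of 9176467 and 6528643 counts was chosen after seeing the data.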

Additional observations from a re-analysis of the deposited data

Results flagged for a closer look

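In the MEF group, each member's 4 values were searched for 1 library apart from the others by Dixon's ratio. Itga10 was at 1.829 CPM in the MEF library of 7312679 counts and at 0.240 to 0.318 CPM in the other 3. Lama2 was at 4.573 CPM in the same library and at 6.91 to 7.07 CPM in the other 3. These were 2 of the 37 members searched, and 1 in 20, or 1.85, would be met by chance.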

How the results depend on the processing

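Over 471 fold changes of members under the alternatives, 428 kept direction and side of the threshold, 22 lost the call, 9 gained it and 12 changed sign, all 12 of members not called. Without scaling, Itga11 was 0.0378, Itga3 0.16 and Itgb6 0.14. Leaving out 1 library gave -2.59 to 0.24 for Itga11, -0.30 to 0.10 for Itga3 and -0.77 to 0.15 for Itgb6. Without both MEF libraries of 9176467 and 6528643 counts, chosen after seeing the data, Itga10 was -0.0820, Itga7 -0.0805 and Itga11 0.21, 8 members were higher and 12 lower. In the test against a fold change of 2, 4 members were higher and 9 lower, and over all genes 3991 were called, not 7938. DESeq2 called 6 and 14. Leaving out 1 library gave 4 to 7 members higher and 13 to 16 lower.

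Of the related lists, ligands higher were 3 without scaling, 2 with at least 10 counts, 2 without both MEF libraries and 1 to 2 without 1 library (2 without MEF 9176467). Activators and adaptors higher were 1 without filter and 1 against a fold of 2, where 6 were lower, and 1 to 2 without 1 library. Dystroglycan enzymes higher were 1 without scaling and 0 to 1 without 1 library (1 without MEF 11441278). Dystrophin complex genes higher were 0 against a fold of 2, 0 without both MEF libraries and 0 to 1 without 1 library (1 without MEF 7312679 or mESC 7462710). Basement membrane genes higher were 1 to 3 without 1 library (1 without mESC 7462710), and leukocyte chains higher 2 without both MEF libraries. Apart from counts that follow from fewer genes or libraries tested, the cause was not tested. A prior count of 0.5 moved 2 of 74 mean levels, and pooled counts none of 72 shares.

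No paired analysis was possible because the count columns carry no stated sample number. Genes at a few counts, such as Itgb2, Lamc3 and Itga2, are limited by depth. Overlapping exons of other genes touch Itga1, Itga4, Itga7, Itgb4, Lama2, Lama3, Lamc3, Nid1 and Nid2 besides those named in the report. Related genes with such overlaps include Col4a1, Col4a3, Fras1, Spp1, Col3a1, Fn1, Fermt3, Lims2, Pomt2 and Sspn.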
